A study of Mus musculus with 19 samples.

Results

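The transcripts described here belong to 36 genes of glucose handling, picked by symbol from a table of 24537 genes. They comprise 16 genes of glycolysis and its regulators, 3 of hexose entry, 6 of gluconeogenesis, 7 of glycogen metabolism and 4 of the pentose phosphate pathway. All 36 were in the table under those symbols, and all 36 passed the filter on low counts that left 12269 genes for testing. Poly(A) RNA was sequenced from hepatocytes, the liver cells that carry out most of its glucose metabolism, isolated by perfusion of male wild-type C57BL/6J mice. The young group held 10 mice labelled as 5 months old and the old group 9 mice labelled as 24 months old, with 1 library per mouse. The labels name no treatment, and they do not give the feeding state or the hour of the cull. Mice were culled on 2 days that lay 23 days apart, with 5 young and 5 old mice on the first day and 5 young and 4 old mice on the second. By the birth dates in the labels, young mice were 140 or 163 days old and old mice 719 or 742 days old. Mice are named here by the library numbers of the labels. Counts over genes ranged from 17381439 to 20287629 per library, and the number of mice sets the precision of the age comparison.

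Glycolysis splits glucose into pyruvate, and gluconeogenesis rebuilds glucose from lactate, amino acids and glycerol through many of the same reversible enzymes. The irreversible steps use separate enzymes, among them pyruvate carboxylase, phosphoenolpyruvate (PEP) carboxykinase, fructose bisphosphatase and glucose-6-phosphatase. The liver is the main organ that exports glucose, stores it as glycogen after a meal and releases it again between meals. Hepatocytes use their own forms of several of these proteins, such as the transporter GLUT2 (Slc2a2) and the pyruvate kinase encoded by Pklr. Hk1, Pkm and Slc2a1 encode forms used by most other cells, and Hk2 encodes a form of muscle and fat.

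Against that background the labelled cell type was checked. Levels are given as CPM, the usual count per library size, here after TMM scaling. The 10 hepatocyte markers examined, among them Alb, Apoa1 and Cps1, summed to 95919 to 155138 CPM in young mice and 120254 to 199725 CPM in old mice. They did not move together, since 2 of them rose and 3 fell in edgeR. Markers of other liver cells were present at a far lower level. The 11 stellate cell markers summed to 46.6 to 125 CPM in young and 131 to 458 CPM in old mice, without overlap, and all 11 rose in edgeR. For the 12 macrophage markers, all of which rose, the sums were 100.2 to 486 CPM in young and 68.0 to 3313 CPM in old mice. For the 10 endothelial markers, 7 of which rose, they were 122 to 230.3 and 136 to 455 CPM. Old mouse 1187 had the highest sum of all 3 lists. The 9 lymphocyte markers summed to at most 10.4 CPM in young and 98.5 CPM in old mice, with Cd3e at 0 counts in some mice of each age and Cd79a at 0 in some young mice. The 5 cholangiocyte markers summed to 5.44 to 170.3 CPM in young mice, highest in young mouse 1186, and 7.96 to 63.5 CPM in old mice. The 5 neutrophil markers summed to at most 4.63 and 14.8 CPM. Krt19, Epcam and S100a8 were at 0 in some libraries. Young mice 1184, 1186 and 1188 stood apart from the other young mice in the share of counts taken by albumin, at 5.82% to 6.29% against 10.2% to 11.1%. All 3 were culled on the first day. In a bulk preparation, fewer cells of a type and less RNA per cell cannot be told apart.

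Age was tested gene by gene with edgeR's quasi-likelihood test, with cull day in the model and Benjamini-Hochberg adjustment over all 12269 genes at a threshold of 0.05. A log2 fold change is old over young throughout. Of the 36 genes, 15 passed (41.7%), against 30.9% of all genes tested. The 10 that fell made up 27.8% of the 36, against 14.5% of all genes tested, and the 5 that rose made up 13.9%, against 16.3%. The genes that fell were Gapdh, Pgk1, Pgam1, Pfkfb1, Pfkfb2, Pck1, Pcx, Slc37a4, Pygl and Ugp2, with log2 fold changes of -0.28 to -0.54. The genes that rose were Hk1, Hk2, Pkm, G6pdx and Pck2, by 1.48-fold to 2.84-fold. The median log2 fold change was -0.12 over the 36 genes and -0.00338 over all genes tested. Without young mice 1184, 1186 and 1188, 13 of the 36 passed, 11 of them among the 15, against 27.2% of all genes tested in that fit.

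**Figure D1:**
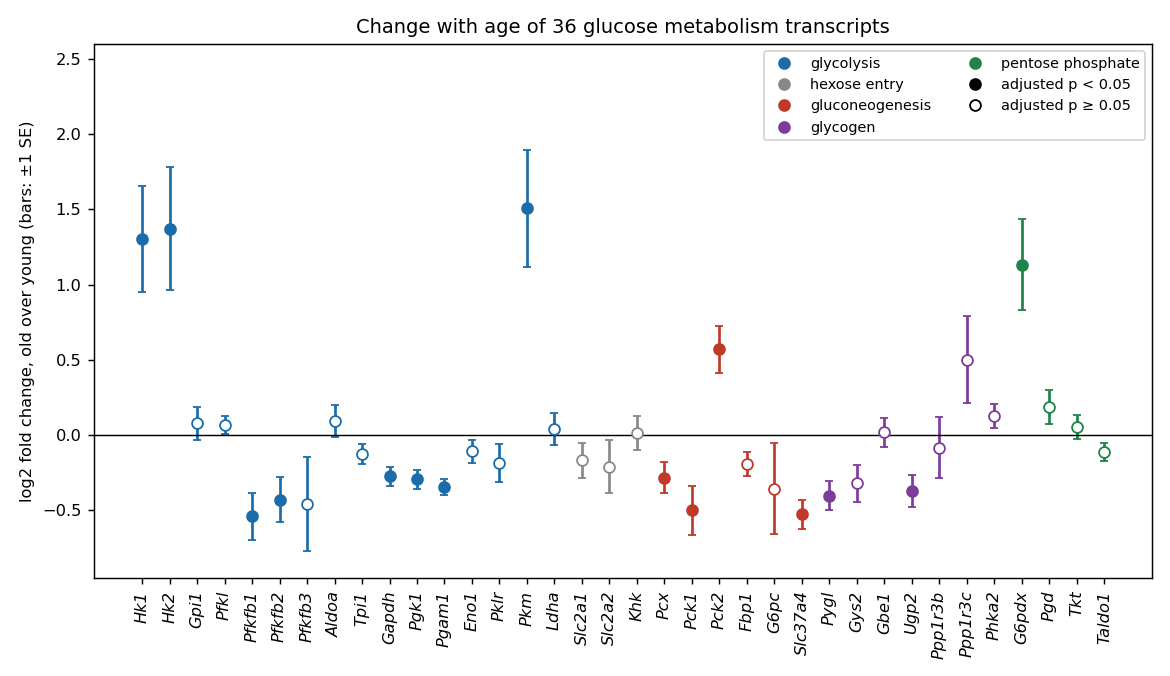
Log2 fold change (old over young, vertical axis) of each of the 36 genes, in order of role, from the edgeR fit over 10 young and 9 old mice. Points are the fitted values, bars are 1 SE either side, and filled points passed the adjusted threshold. The 4 largest rises, Pkm, Hk2, Hk1 and G6pdx, stand above 1, and the 10 genes that fell lie between -0.54 and -0.28.

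Sequence before the start site is shown for 5 genes, the consecutive enzymes Gapdh, Pgk1 and Pgam1, which fell, and the PEP carboxykinase pair Pck1 and Pck2, which moved in opposite directions. Each run is the 250 bases that end just before the start site, read 5′ to 3′ on the gene's strand, from RefSeq on GRCm38.p6, the same build as mm10. Start sites were matched by symbol for 34 of the 36 genes. The matched start lay up to 281 bases from the start of the counted gene (G6pdx), and 0 bases from it for the 5 genes shown. Capitals mark 4 motifs found by their letters on either strand. The first is TTACGTCA, the form of the cAMP response element known from the PEP carboxykinase promoter. The next is ACGTG, the core of the hypoxia response element and a part of the canonical E-box. The others are GGGCGG, the GC box, and CCAAT, the CCAAT box. The positions are Gapdh (chr6:125165774-125166023, minus strand), Pgk1 (chrX:106186850-106187099, plus strand), Pgam1 (chr19:41911621-41911870, plus strand), Pck1 (chr2:173152823-173153072, plus strand) and Pck2 (chr14:55540016-55540265, plus strand).
Gapdh: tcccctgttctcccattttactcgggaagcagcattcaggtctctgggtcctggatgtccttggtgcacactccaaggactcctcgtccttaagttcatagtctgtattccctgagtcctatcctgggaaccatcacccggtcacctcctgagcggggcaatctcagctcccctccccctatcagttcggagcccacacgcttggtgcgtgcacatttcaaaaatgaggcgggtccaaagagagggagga
Pgk1: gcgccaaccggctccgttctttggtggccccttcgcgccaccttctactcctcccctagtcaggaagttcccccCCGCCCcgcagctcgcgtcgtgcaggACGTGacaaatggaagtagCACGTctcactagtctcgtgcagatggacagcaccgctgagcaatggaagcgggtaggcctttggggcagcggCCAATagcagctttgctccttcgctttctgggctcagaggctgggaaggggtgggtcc
Pgam1: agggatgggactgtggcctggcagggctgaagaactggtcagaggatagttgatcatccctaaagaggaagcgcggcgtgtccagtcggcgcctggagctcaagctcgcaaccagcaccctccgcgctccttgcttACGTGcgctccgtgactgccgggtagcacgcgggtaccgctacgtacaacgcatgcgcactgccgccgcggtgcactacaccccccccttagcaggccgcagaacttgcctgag
Pck1: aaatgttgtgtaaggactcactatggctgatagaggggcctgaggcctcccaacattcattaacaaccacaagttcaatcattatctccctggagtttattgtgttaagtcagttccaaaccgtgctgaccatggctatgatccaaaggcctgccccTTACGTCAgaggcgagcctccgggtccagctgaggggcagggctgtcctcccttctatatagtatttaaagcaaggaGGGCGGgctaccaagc
Pck2: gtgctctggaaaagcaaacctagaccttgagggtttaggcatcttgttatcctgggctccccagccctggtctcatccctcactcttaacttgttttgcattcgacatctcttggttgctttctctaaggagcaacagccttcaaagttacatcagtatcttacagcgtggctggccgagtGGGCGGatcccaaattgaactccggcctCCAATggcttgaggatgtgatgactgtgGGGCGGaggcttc
In these windows Pgk1 held ACGTG at 2 places, whose leftmost bases lie 150 and 131 bases before the start, and Pgam1 held it 114 bases before the start. No motif among these was matched in the Gapdh window. TTACGTCA stood 93 bases before the Pck1 start, and Pck2 had GGGCGG at 69 and 13 bases and CCAAT at 41 bases before its start. TTACGTCA was in 0.448% of 32851 promoter windows of the same length, ACGTG in 16.6%, GGGCGG in 32.7% and CCAAT in 33.9%. Among the 34 matched genes, 1 held TTACGTCA, 12 held ACGTG, 24 held GGGCGG and 15 held CCAAT. The 2 sets are unlike, since the 32851 windows were not limited to genes tested here or to 1 window per gene. These are matches of letters, and binding was not measured.

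Glucose enters hepatocytes mainly through GLUT2, and fructose is trapped by ketohexokinase (Khk). None of the 3 hexose entry genes passed, in edgeR or DESeq2, and 0 of the 3 had an unadjusted p under 0.05. In young mice, Slc2a2 lay between 133 and 335 CPM with a median of 231, and in old mice between 151 and 321 CPM with a median of 191. The ages overlapped widely, with no old mouse outside the young range. This corresponded to a log2 fold change of -0.21 (SE 0.175, adjusted p = 0.383 in edgeR), -0.03 within the first cull day and -0.40 within the second, and it passed on the second day alone (edgeR adjusted p = 0.00935). It also passed without young mice 1184, 1186 and 1188, at -0.48 (edgeR adjusted p = 0.0157). Slc2a1, which encodes GLUT1, had a median of 11.2 CPM in young mice (lowest 8.73, highest 13.6) and 10.4 CPM in old mice (lowest 7.17, highest 13.4). Old over young, the log2 fold change was -0.17 (SE 0.117, adjusted p = 0.284 in edgeR). As RPKM, which is CPM divided by exon length in kilobases, Slc2a2 stood at 91.2 ± 26.0 in young mice (SD, n = 10) and Slc2a1 at 4.48 ± 0.698 (SD, n = 10), a ratio of 10.2 to 30.5 within young mice and 14.7 to 27.5 within old mice. For Khk the log2 fold change was 0.02 (SE 0.113, adjusted p = 0.928 in edgeR).

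Hexokinases phosphorylate glucose on entry, and phosphofructokinase commits it to glycolysis. Pfkl, the liver phosphofructokinase, ran from 29.9 to 39.5 CPM in young mice (median 34.4) and from 28.7 to 42.7 CPM in old mice (median 37.3). In log2 terms the difference was 0.07 (SE 0.0598, adjusted p = 0.416 in edgeR). Its activity is set by the bifunctional Pfkfb enzymes, which make and break fructose 2,6-bisphosphate, the activator of phosphofructokinase and inhibitor of fructose bisphosphatase. In young mice, Pfkfb1, the liver form, lay between 15.7 and 32.3 CPM with a median of 24.5, and in old mice between 11.3 and 20.9 CPM with a median of 17.2. All 9 old mice lay below the young median, and 6 young mice lay above every old mouse. The fitted log2 fold change was -0.54 (SE 0.155, adjusted p = 0.0139 in edgeR), and by cull day it was -0.49 and -0.59. Without young mice 1184, 1186 and 1188 it was -0.39 (edgeR adjusted p = 0.117), which did not pass.

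Pfkfb2 had a median of 17.5 CPM in young mice (lowest 11.5, highest 27.5) and 13.4 CPM in old mice (lowest 8.54, highest 25.7). In old mice 8 of 9 lay below the young median, and old mouse 1189 reached 25.7 CPM. The log2 fold change was -0.43 (SE 0.151, adjusted p = 0.037 in edgeR). That call was lost when 1 mouse was left out in 11 of the 19 cases, namely young mice 1184, 1186, 1188, 1235 and 1237 and old mice 1181, 1183, 1185, 1187, 1236 and 1242, with adjusted p of 0.0516 to 0.0704 in edgeR. Without young mice 1184, 1186 and 1188 together it was -0.26 (edgeR adjusted p = 0.265), and without the cull day term -0.41 (edgeR adjusted p = 0.117). Pfkfb3, the inducible form, ran from 4.02 to 26.9 CPM in young and 3.64 to 27.1 CPM in old mice, with a log2 fold change of -0.46 (SE 0.314, adjusted p = 0.28 in edgeR).

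The middle of the pathway held the most separated gene of the set. Gapdh, Pgk1 and Pgam1 encode 3 consecutive enzymes, used in both directions, that turn glyceraldehyde 3-phosphate into 2-phosphoglycerate. On mm10 they lie at chr6:125161852-125165773, chrX:106187100-106203699 and chr19:41911871-41918665. Pgam1, phosphoglycerate mutase, ran from 81.5 to 95.9 CPM in young mice (median 85.1) and from 62.0 to 76.9 CPM in old mice (median 69.0). Every old mouse lay below every young mouse, the only one of the 36 genes without overlap between the ages, against 1.72% of all genes tested. Its log2 fold change was -0.35 (SE 0.0542, adjusted p = 0.000253 in edgeR), and by cull day it was -0.29 and -0.40. Pgk1, phosphoglycerate kinase, had 290.1 to 369.6 CPM in young mice (median 316) against 218 to 296 CPM in old mice (median 266). Of the old mice 8 were below every young mouse, and old mouse 1236 was within the young range. Pgk1 had a log2 fold change of -0.30 (SE 0.0632, adjusted p = 0.00263 in edgeR). Gapdh spanned 869.8 to 1217 CPM in young mice (median 981) and 705 to 975 CPM in old mice (median 831), with all 9 old mice below the young median and 6 below every young mouse. For Gapdh the log2 fold change was -0.28 (SE 0.0627, adjusted p = 0.0039 in edgeR). Each of the 3 passed whichever of the 19 mice was left out. Gapdh is known for its many processed pseudogenes, and how reads with several matches were counted is not given in the sources used here.

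The enzymes on either side of these 3 did not pass. Tpi1, triosephosphate isomerase, had a log2 fold change of -0.12 (edgeR adjusted p = 0.154), and 8 of 9 old mice lay below its young median. For Eno1, enolase, the value was -0.11 (edgeR adjusted p = 0.284), also with 8 of 9 old mice below the young median. The table places a row for Eno1b on the same strand over 11550 bases of Eno1, with 0.945 to 0.970 counts per Eno1 count in each library, so the Eno1 value is uncertain. Gpi1, Aldoa and Ldha, the other widely used enzymes, had log2 fold changes of 0.08, 0.09 and 0.04, none past the threshold. Whether Gapdh, Pgk1 and Pgam1 differed from these neighbours was not tested.

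**Figure D2:**
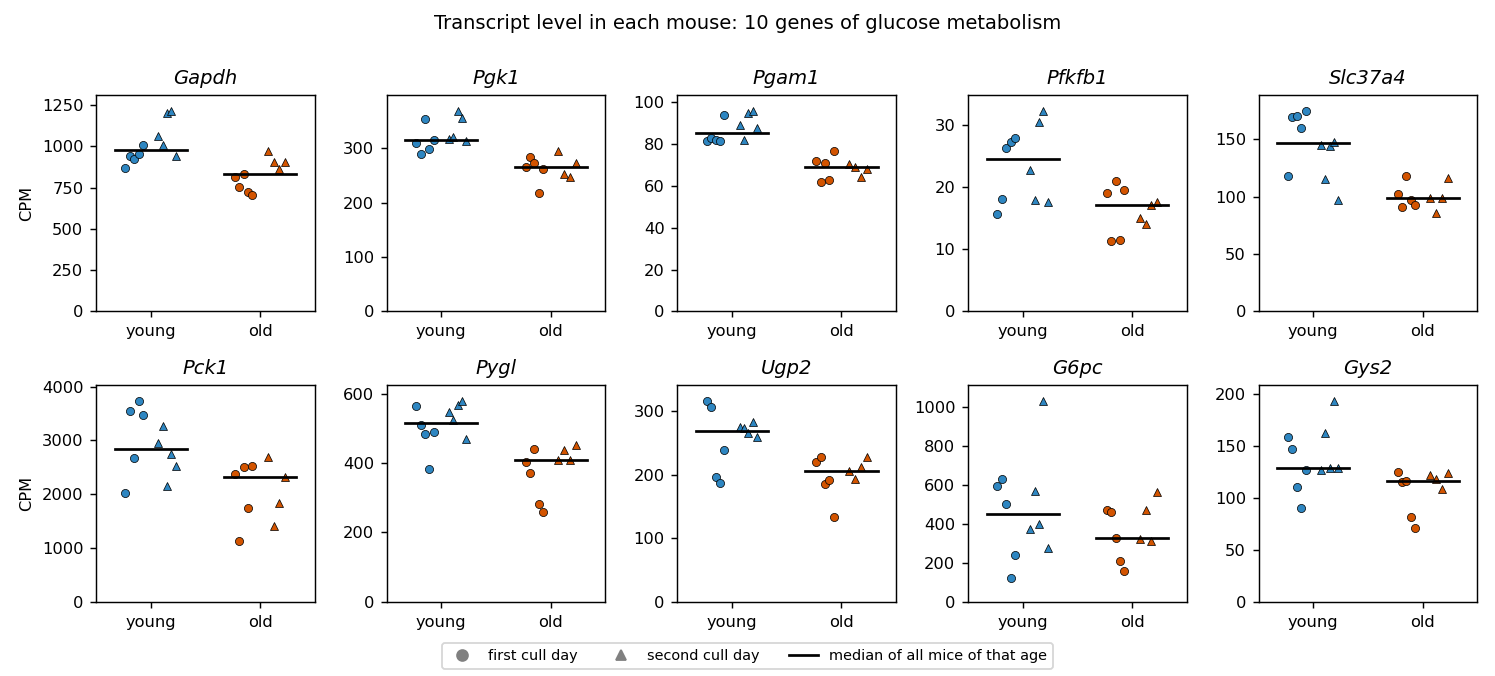
CPM (vertical axes, from 0) of 10 genes in each mouse, young in blue and old in orange, with circles for the first cull day, triangles for the second and a line at the median of each age. Pgam1 shows no overlap between the ages, at 81.5 CPM or more in young and 76.9 CPM or less in old mice, whereas G6pc spans 123 to 1028 CPM among young mice alone.

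The last step of glycolysis has a liver and a widely used pyruvate kinase, Pklr and Pkm, and whether their age differences were unequal was not tested. In young mice, Pklr lay between 191 and 384 CPM with a median of 278, and in old mice between 178 and 300.3 CPM with a median of 249. This corresponded to a log2 fold change of -0.19 (SE 0.126, adjusted p = 0.264 in edgeR), and the ages overlapped. Pkm, the form of most other cells, ran from 4.42 to 18.0 CPM in young mice (median 9.02) and from 7.59 to 107 CPM in old mice (median 16.6). It exceeded the young median in 8 of 9 old mice, and old mouse 1183 had the lowest and 1187 the highest old value. Pkm had a log2 fold change of 1.51 (SE 0.388, adjusted p = 0.00805 in edgeR), and without old mouse 1187 it was 0.90 (edgeR adjusted p = 0.0108). Per length, Pklr stood at 106 ± 24.5 RPKM in young (SD, n = 10) and 91.7 ± 15.9 RPKM in old mice (SD, n = 9), and Pkm at 3.9 ± 1.52 and 11.5 ± 12.5 RPKM (SD, same n). The ratio of Pklr to Pkm per length had a median of 27.1 in young mice and 13.4 in old mice, and it was 1.53 in old mouse 1187.

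Hk1 and Hk2 were the genes with the fewest counts of the 36. Hk1, a hexokinase of most tissues, had 9 to 50.5 counts in young and 24.0 to 218 counts in old libraries. That is 0.494 to 2.92 CPM (median 1.34) against 1.25 to 9.51 CPM (median 2.61), with 4 old mice above every young mouse. Old over young, the log2 fold change was 1.30 (SE 0.354, adjusted p = 0.0108 in edgeR). Hk2, the insulin-responsive form of muscle and fat, lay between 0.421 and 1.26 CPM in young (median 0.56) and between 0.364 and 7.73 CPM in old mice (median 1.24). Old mouse 1183 was below every young mouse and old mouse 1187 was far above all others. Its log2 fold change of 1.37 (SE 0.407, adjusted p = 0.0168 in edgeR) was 0.77 (edgeR adjusted p = 0.0374) without old mouse 1187.

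Of the 6 gluconeogenesis genes, 3 fell and 1 rose, against 14.5% and 16.3% of all genes, and the median log2 fold change was -0.32. Slc37a4, the transporter that carries glucose 6-phosphate into the endoplasmic reticulum for its last step, had a median of 146 CPM in young mice (lowest 97.5, highest 175) and 98.7 CPM in old mice (lowest 86.0, highest 118). All 9 old mice lay below the young median, and 7 young mice lay above every old mouse. The gene lies at chr9:44397095-44402968. In log2 terms the difference was -0.53 (SE 0.0978, adjusted p = 0.000945 in edgeR), and by cull day it was -0.66 and -0.38. On the first day alone it was the single gene of the 36 to pass (edgeR adjusted p = 0.0333), and on the second day alone it did not pass (edgeR adjusted p = 0.0659). G6pc, the catalytic subunit that works with it, ran from 123 to 1028 CPM in young mice (median 451) and from 160.4 to 561 CPM in old mice (median 325). With a log2 fold change of -0.36 (SE 0.3, adjusted p = 0.387 in edgeR) it did not pass. Whether G6pc and Slc37a4 differed from each other was not tested.

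The PEP carboxykinases convert oxaloacetate into PEP, Pck1 in the cytosol and Pck2 in mitochondria. Pck1 ran from 2017 to 3733 CPM in young mice (median 2849.6) and from 1139 to 2685 CPM in old mice (median 2319). All 9 old mice were below the young median, 4 of them below every young mouse. Pck1 had a log2 fold change of -0.50 (SE 0.161, adjusted p = 0.0243 in edgeR), and by cull day it was -0.59 and -0.40. Without young mice 1184, 1186 and 1188 it was -0.42 (edgeR adjusted p = 0.0983), which did not pass. Pck2 had 2.63 to 5.36 CPM in young mice (median 3.85) and 4.17 to 9.03 CPM in old mice (median 5.46), and all 9 old mice lay above the young median. Pck2 had a log2 fold change of 0.57 (SE 0.154, adjusted p = 0.0106 in edgeR). Per length Pck1 remained the dominant form, at 1117 ± 228 RPKM in young (SD, n = 10) and 790.2 ± 209.6 RPKM in old mice (SD, n = 9), against 1.17 ± 0.236 and 1.73 ± 0.4665 RPKM for Pck2 (SD, same n). Their ratio within a mouse had a median of 956 in young and 561 in old mice. The TTACGTCA match printed above is in the window of Pck1 and not in that of Pck2.

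Pcx, pyruvate carboxylase, supplies the oxaloacetate. In young mice, Pcx lay between 479.5 and 661 CPM with a median of 515, and in old mice between 346 and 629.6 CPM with a median of 435. Of the old mice 7 lay below every young mouse, while old mouse 1189 lay near the top of the young range. The fitted log2 fold change was -0.28 (SE 0.102, adjusted p = 0.0424 in edgeR). With 1 mouse left out, the call was kept in 5 of 19 cases, those without young mice 1182, 1184 or 1188 or old mice 1181 or 1189. It did not hold without young mice 1180, 1186, 1235, 1237, 1239, 1243 or 1244 or old mice 1183, 1185, 1187, 1236, 1238, 1240 or 1242, where edgeR adjusted p was 0.0501 to 0.0844. The call was also lost without young mice 1184, 1186 and 1188 together, at -0.29 (edgeR adjusted p = 0.0782), without the cull day term (edgeR adjusted p = 0.0691) and with a filter of 1 CPM in 9 libraries (edgeR adjusted p = 0.0532). Fbp1, fructose bisphosphatase, had a median of 837 CPM in young mice (lowest 745, highest 1161) and 801 CPM in old mice (lowest 588, highest 903). In 8 of 9 old mice Fbp1 was below the young median. Its log2 fold change was -0.19 (SE 0.081, adjusted p = 0.0743 in edgeR). It passed without old mouse 1181, at -0.23 (edgeR adjusted p = 0.0428), without old mouse 1189, at -0.22 (edgeR adjusted p = 0.046), and in DESeq2 (adjusted p = 0.032).

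Glycogen is built from UDP-glucose by Ugp2, Gys2 and Gbe1 and broken down by the phosphorylase Pygl. Of the 7 glycogen genes, Pygl and Ugp2 fell, 28.6% of the list, where of all genes 14.5% fell and 30.9% passed in either direction, and 5 did not pass. Pygl ran from 382 to 579 CPM in young mice (median 516) and from 259 to 453 CPM in old mice (median 409). Every old mouse was below the young median, and 9 of 10 young mice lay above every old mouse. The log2 fold change was -0.40 (SE 0.096, adjusted p = 0.00492 in edgeR), and by cull day it was -0.47 and -0.33. Ugp2, which makes UDP-glucose, had 188 to 316 CPM in young mice (median 269.8) and 134 to 229 CPM in old mice (median 206). Here too all 9 old mice were below the young median, and 8 young mice exceeded every old mouse. Its log2 fold change was -0.37 (SE 0.105, adjusted p = 0.0131 in edgeR), and by cull day it was -0.38 and -0.36.

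In young mice, Gys2, the liver glycogen synthase, lay between 90.9 and 194 CPM with a median of 129, and in old mice between 71.1 and 125 CPM with a median of 116. All 9 old mice lay below the young median, and 8 young mice lay above every old mouse. This corresponded to a log2 fold change of -0.32 (SE 0.121, adjusted p = 0.0504 in edgeR), just short of the threshold. Leaving out 1 mouse brought it past the threshold in 8 of 19 cases, those without young mice 1184, 1186, 1235, 1239 or 1244 or old mice 1181, 1183 or 1185, with edgeR adjusted p of 0.0233 to 0.0482. It also passed without young mice 1184, 1186 and 1188 together, at -0.43 (edgeR adjusted p = 0.0223), in DESeq2 (adjusted p = 0.0299), and in edgeR with size-factor scaling (adjusted p = 0.0457) or no filter (adjusted p = 0.0408). With the score of other-cell markers in the model it was -0.07 (SE 0.136, adjusted p = 0.762 in edgeR). Gbe1, the branching enzyme, and Phka2, a liver subunit of phosphorylase kinase, had log2 fold changes of 0.02 and 0.13, neither past the threshold.

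The subunits Ppp1r3b and Ppp1r3c bring protein phosphatase 1 to glycogen, where it activates glycogen synthase. Ppp1r3b, the main liver subunit, had a median of 292 CPM in young mice (lowest 153, highest 359) and 246 CPM in old mice (lowest 157, highest 399). Old over young, the log2 fold change was -0.08 (SE 0.203, adjusted p = 0.781 in edgeR), and its sign differed between cull days (0.05 and -0.22). Ppp1r3c ran from 19.1 to 124 CPM in young mice (median 56.4) and from 59.7 to 143 CPM in old mice (median 86.9). All 9 old mice lay above the young median. In log2 terms the difference was 0.50 (SE 0.289, adjusted p = 0.195 in edgeR), and by cull day it was 0.75 and 0.23. With a score of other-cell markers in the model, Ppp1r3c passed, at 1.12 (SE 0.297, adjusted p = 0.0191 in edgeR). Without young mice 1184, 1186 and 1188 it was 0.18 (edgeR adjusted p = 0.656).

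The pentose phosphate pathway makes NADPH and ribose from glucose 6-phosphate. G6pdx, its first enzyme, was the single gene of the 4 to pass (25.0%, below the 30.9% of all genes tested). It had 3.23 to 7.88 CPM in young mice (median 5.22) and 2.96 to 31.2 CPM in old mice (median 10.4), with 6 old mice above every young mouse and old mouse 1183 below all of them. The fitted log2 fold change was 1.13 (SE 0.304, adjusted p = 0.00999 in edgeR), and without old mouse 1187 it was 0.75 (edgeR adjusted p = 0.0128). G6pdx overlaps Ikbkg on the opposite strand over 4550 bases. Ikbkg averaged 1139 counts per library against 162 for G6pdx, and the strand setting of the counting is not given in the sources used here. For Ikbkg itself the value was -0.22 (SE 0.0886, adjusted p = 0.0666 in edgeR), the opposite sign to G6pdx. Pgd, Tkt and Taldo1 had log2 fold changes of 0.19, 0.05 and -0.11 and did not pass. Pgd passed without old mouse 1183, at 0.26 (edgeR adjusted p = 0.0222).

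The 5 genes that rose were set against the markers of other liver cells. A score was taken as the mean log2 CPM of the macrophage, endothelial and stellate marker lists. It ran from 2.29 to 3.95 in young mice (median 2.95) and from 2.54 to 5.86 in old mice (median 4.12). Old mouse 1183 had the lowest old score and old mouse 1187 the highest of all mice. The same mice had the lowest and highest old values of Hk1, Hk2, Pkm and G6pdx. With the score in the model beside cull day and age, the age term of Pkm went from 1.51 to -0.0036 (SE 0.163, adjusted p = 0.99 in edgeR). For Hk1 the term was 0.15 (SE 0.226, adjusted p = 0.685 in edgeR), and for Hk2 it was -0.15 (SE 0.243, adjusted p = 0.712 in edgeR). G6pdx gave 0.17 (SE 0.288, adjusted p = 0.73 in edgeR) and Pck2 gave 0.27 (SE 0.158, adjusted p = 0.268 in edgeR). None of the 5 genes that rose passed in that model. Which cells carried these transcripts was not tested. The score and age moved together across these mice, and over all genes the number that passed went from 3785 to 1592 (13.0%).

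**Figure D3:**
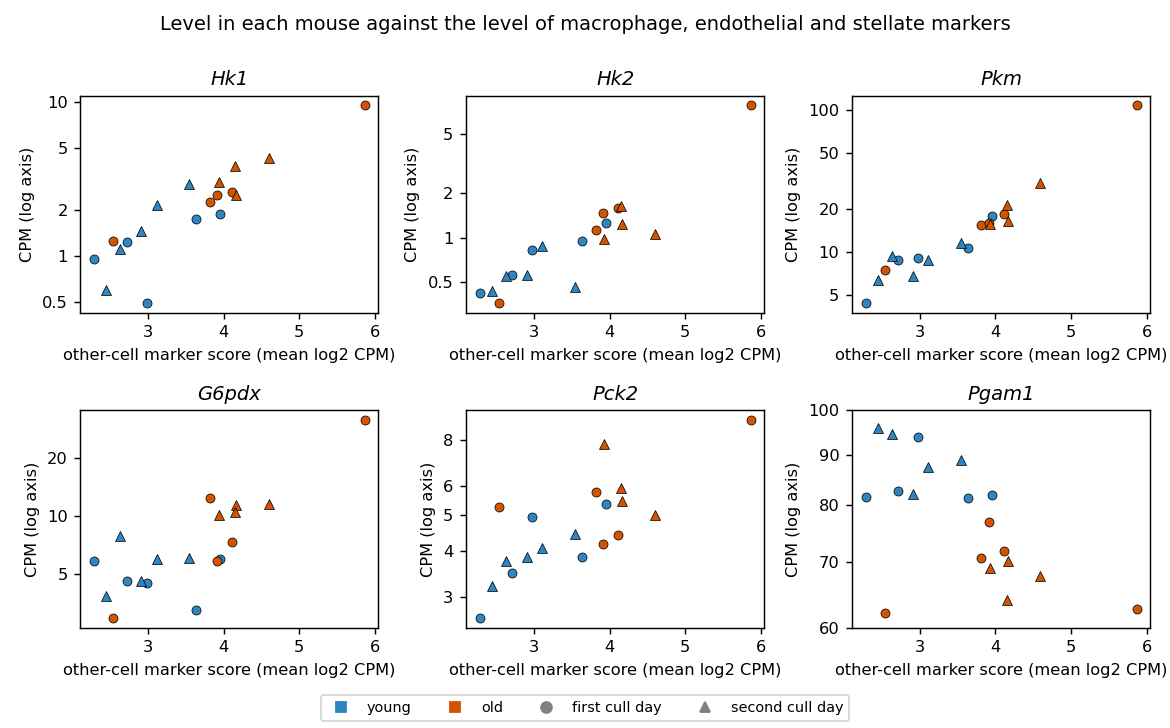
CPM on a log axis against the mean log2 CPM of macrophage, endothelial and stellate markers (horizontal axis) for the 5 genes that rose and for Pgam1, with 1 point per mouse. Old mouse 1187 is the rightmost point in each panel at a score of 5.86, and Pkm reaches 107 CPM there, while the old mice of Pgam1 lie at 76.9 CPM or less across the range of scores.

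Among the 10 genes that fell, Pgam1, Pck1 and Slc37a4 passed with the score in the model, and all 10 kept a negative sign. The age term was -0.32 (SE 0.0727, adjusted p = 0.00816 in edgeR) for Pgam1 and -0.61 (SE 0.126, adjusted p = 0.00421 in edgeR) for Slc37a4. Pck1 gave -0.69 (SE 0.212, adjusted p = 0.0367 in edgeR). The other 7 had age terms between -0.56 (Pfkfb1) and -0.22 (Pgk1), with Gapdh at -0.25 (SE 0.0841, adjusted p = 0.0583 in edgeR). Pygl moved from -0.40 to -0.26 and Ugp2 from -0.37 to -0.22.

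**Figure D4:**
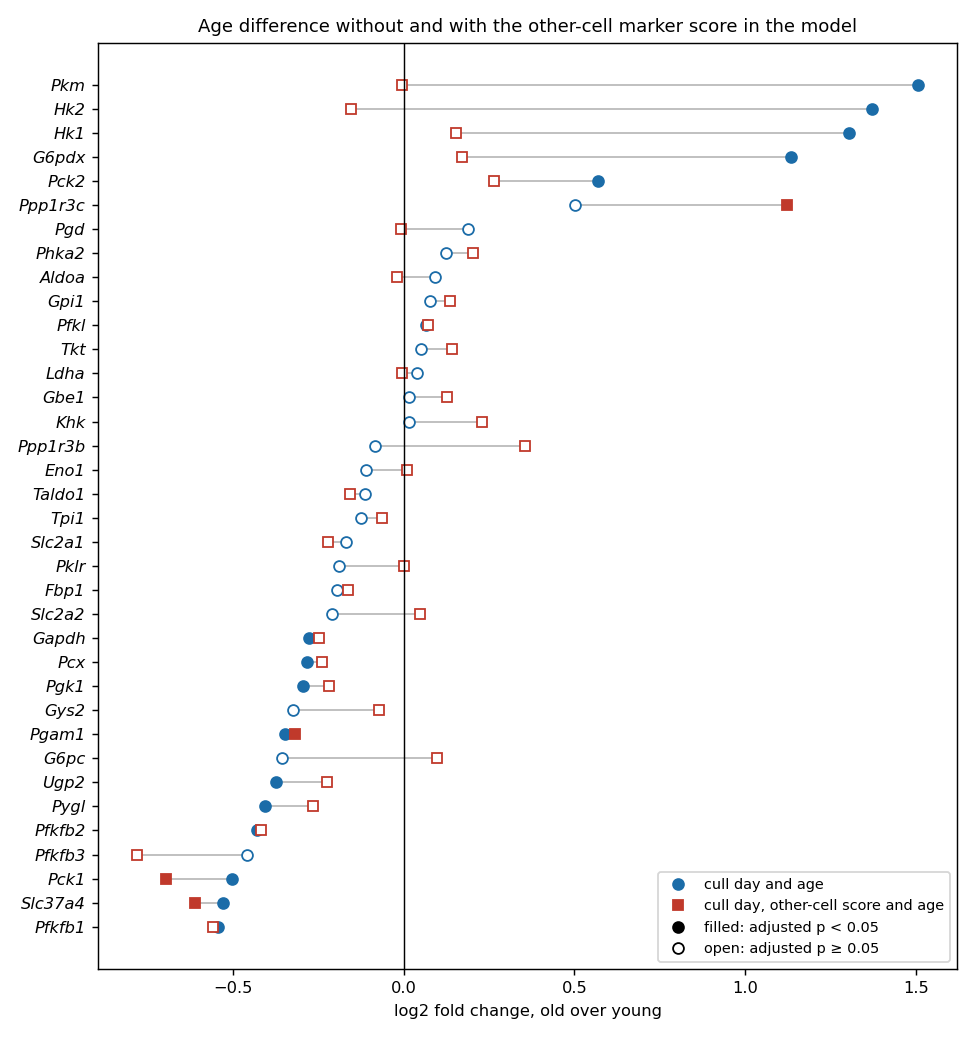
Log2 fold change (old over young, horizontal axis) of the 36 genes from the fit with cull day and age (blue circles) and from the fit that adds the other-cell marker score (red squares), with filled symbols past the adjusted threshold. Pkm, Hk2, Hk1 and G6pdx move from above 1 to between -0.15 and 0.17, and Pgam1, Pck1 and Slc37a4 stay filled.

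The age effect was then compared between the cull days. Young mice 1184, 1186 and 1188 were all among the 5 young mice of the first day. The fits by cull day and the fit without these mice are therefore not separate checks. On the first day alone 1 of the 36 passed, against 3.67% of all genes. On the second 11 passed, of which 10 were among the 15, against 19.3% of all genes. The 15 were chosen by a fit over both days, which favours genes of one sign on both. The genes that fell had log2 fold changes of -0.66 to -0.24 on the first day and -0.59 to -0.25 on the second, and the genes that rose 0.50 to 1.68 and 0.65 to 1.29. An interaction of age and cull day passed for 0 of 12269 genes in edgeR, with 799 at an unadjusted p under 0.05 (6.51%), and for 10 genes in DESeq2, none of them among the 36. Of the 36 genes 1, Taldo1, had an unadjusted interaction p under 0.05 (0.0373, edgeR adjusted p = 0.743), and it is named after its value was seen.

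**Figure D5:**
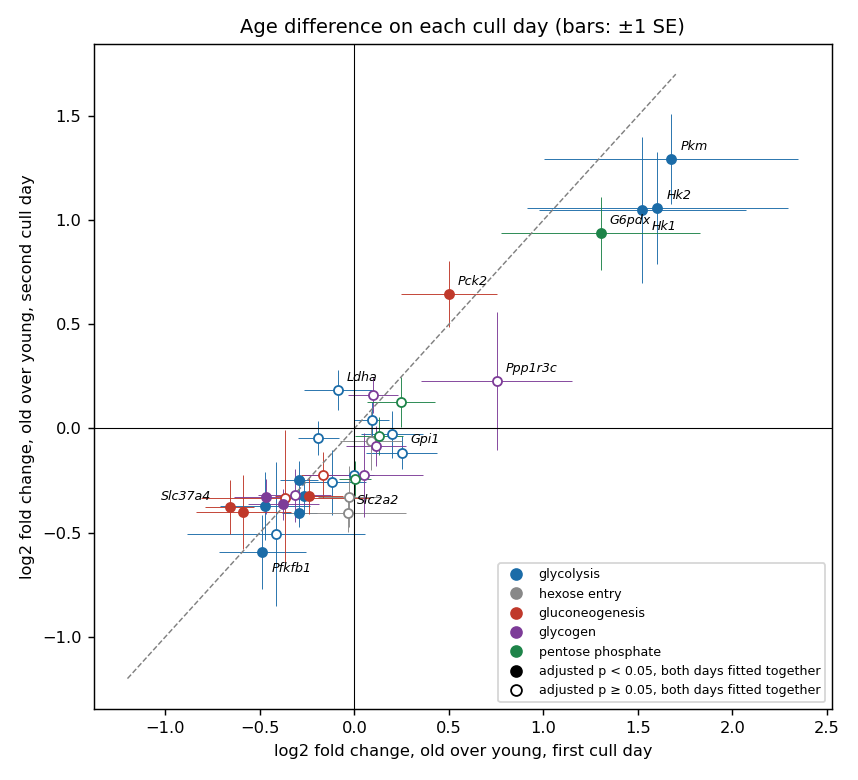
Log2 fold change (old over young) of the 36 genes on the first cull day (horizontal axis, 5 young and 5 old mice) and on the second (vertical axis, 5 young and 4 old mice), with bars of 1 SE, colours by role and a dashed line of equal values. Filled points passed with both days fitted together. Slc37a4, which passed on the first day alone, lies at -0.66 and -0.38.

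Other genes of the same pathways were taken from lists, with up to 3 named by the smallest p and given with their log2 fold changes. Of all genes tested, 14.5% fell and 16.3% rose, 30.9% in all. Among 13 tested genes of other glycolysis enzymes, 4 rose and 1 fell (38.5% against 30.9% of all genes). Those that rose included Pfkp (1.26) and Ldhb (0.79). Pfkp and Ldhb, like Hk1, Hk2 and Pkm, are forms used outside the hepatocyte, and in young mice Pfkp and Ldhb averaged 1.12 ± 0.187 and 1.24 ± 0.346 CPM (SD, n = 10). Of 10 genes of hexose transport and of fructose or galactose use, 3 fell, namely Glyctk (-0.33), Sord (-0.39) and Tkfc (-0.35), all of which act on fructose, sorbitol or their products. The list of gluconeogenic precursors held 8 genes that fell and 1 that rose among 12 tested (75.0% against 30.9% of all genes), with a median log2 fold change of -0.25. It was led by Tat, tyrosine aminotransferase (-1.10), Gpt2, an alanine aminotransferase (-0.40), and Gpd1, glycerol-3-phosphate dehydrogenase (-0.54).

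Pyruvate and lactate genes had 5 falls and 2 rises among 15 (46.7% against 30.9% of all genes). Pdhx (-0.52), Dld (-0.28) and Pdhb (-0.39), components of the pyruvate dehydrogenase complex, had the smallest p. In the same list, Pdk4, the kinase that switches that complex off, rose by 1.17 on the log2 scale (edgeR adjusted p = 0.0112) and is named here after its value was seen. Of 20 other glycogen genes, 3 fell and 2 rose (25.0%, below the 30.9% of all genes), with Ppp1cb at -0.25, Gsk3b at -0.35 and Pygb, the brain form of phosphorylase, at 1.05. Of 8 other pentose phosphate genes, Rpe fell (-0.32) and Prps2 rose (0.40), a share of 25.0%, below the 30.9% of all genes. Among 24 regulators of glucose genes, 7 fell (29.2%, where of all genes 14.5% fell and 30.9% passed in either direction), with a median log2 fold change of -0.18. The leading 3 were Klf15, a glucocorticoid-induced activator of gluconeogenic genes (-0.63), Mlx, the partner of the carbohydrate-sensing factor ChREBP (-0.29), and the forkhead factor Foxo3 (-0.72).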

How the data were processed

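The authors deposited estimated counts per gene for 19 libraries, written by HOMER for mm10 over exons with transcripts condensed to genes, per the file headers. STAR and HOMER are named in the submitters' processing notes, without versions. Counting strand and reads with several matches are not given in the sources used here. Extraction was with Trizol and chloroform, per the labels' protocols. The deposited counts were multiples of 0.5 and were rounded (29.2% were not whole). The design had assumed plain counts. Age was tested with the quasi-likelihood test of edgeR 4.0.16 (R 4.3.3) after filterByExpr at a minimum count of 10. Libraries were scaled by TMM (weighted trimmed means of log ratios) and cull day entered the model. CPM was computed from the deposited counts on those scaled libraries. Log2 CPM used a prior count of 2. Alternatives were other scalings and filters, DESeq2 1.42.0, dropping the cull day term, separate fits per cull day, a marker score covariate and leaving out mice. The script was tested on simulated data for this age comparison, run on 12214 genes. It recovered 84% of genes changed by 1 on the log2 scale and 49% of those changed by 0.5. The simulation changed 100 genes at each size and had no cull day effect. Far more genes passed in the data, so these rates are not the recovery expected there. The 36 genes and all lists were chosen with earlier results of these data known. Full values are given for genes past the threshold and for 14 enzymes, transporters and regulators whatever their p, other members have their log2 fold change, and up to 3 genes by smallest p are named per list. A few genes of the lists are not reported here. Spread between mice is the only error measured.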

Additional observations from a re-analysis of the deposited data

Results flagged for a closer look

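Single mice stood far from the others of their age in 6 of the 72 combinations of gene and age examined on the log2 CPM scale, where chance alone gives about 1 in 20. Old mouse 1187 was highest for Hk2, at 7.73 CPM against 0.364 to 1.62 CPM in the others of its age, and it was also the mouse with the highest other-cell marker score. Old mouse 1189 was highest for Gpi1, at 254 CPM against 128 to 151 CPM in the others of its age. The same mouse was lowest for Ugp2, at 134 CPM against 185 to 229 CPM in the others of its age. Young mouse 1186 was lowest for Pygl, at 382 CPM against 470.4 to 579 CPM in the others of its age. Young mouse 1180 was highest for Phka2, at 27.9 CPM against 18.0 to 21.8 CPM in the others of its age. Old mouse 1183 was lowest for Pgd, at 34.6 CPM against 54.1 to 72.7 CPM in the others of its age.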

How the results depend on the processing

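Of 12269 genes, 3785 passed. The count was 450 on the first cull day alone, 2389 on the second alone and 1592 with the other-cell marker score in the model. It was 3014 to 3949 over the fits that each left out 1 mouse. Of the 36 genes, 15 passed, 5 higher and 10 lower in old mice. On the first cull day alone 1 passed, lower, and 0 higher in edgeR, with 4 higher and 6 lower at an unadjusted p under 0.05 there. With the marker score 4 passed, 1 higher (Ppp1r3c) and 3 lower. The other scalings, filters, DESeq2, the fit without cull day, the second cull day, unrounded counts and the fit without young mice 1184, 1186 and 1188 gave 11 to 17, and leaving out 1 mouse gave 13 to 16. The last 2 of these settings, unrounded counts and the 3 young mice left out, were chosen after seeing the data. In each of these fits the 15 genes had the same sign, except Hk2 and Pkm with the marker score. That model turned the sign of Hk2 (-0.15), Pkm (-0.0036), Pklr (0.00013), Slc2a2 (0.049), G6pc (0.10), Ppp1r3b (0.36), Pgd (-0.0086), Aldoa (-0.018), Ldha (-0.0054) and Eno1 (0.010). The first cull day alone turned Ppp1r3b (0.0489), Ldha (-0.09) and Taldo1 (0.005), and the second Gpi1 (-0.12), Gbe1 (-0.08), Khk (-0.06), Tkt (-0.03) and Aldoa (-0.03). Without the 3 young mice Khk, Gbe1, Tkt and Aldoa turned (-0.09 to -0.01). Khk and Gbe1 turned with no filter (-0.02 each), as did Khk without the cull day term (-0.0059). Leaving out single mice turned Khk, Gbe1, Ldha, Aldoa or Gpi1 in some fits. The interaction with cull day passed for 0 genes in edgeR (799 at an unadjusted p under 0.05) and 10 in DESeq2. Without overlap between ages there was 1 gene of the 36 under both scalings and both prior counts. The cause of these differences was not tested. No paired analysis was possible because the library numbers are not shared between the ages.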

Other observations

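Genes that report the feeding state, the clock and the position of hepatocytes in the lobule were read from lists. Values in brackets are log2 fold changes, old over young. Of all genes tested, 14.5% fell and 16.3% rose. Of 16 fasting-induced genes, 4 fell and 1 rose (31.2% called, near the 30.9% of all genes), with Tat, Klf15 (-0.63) and Lpin1 (-1.21, a phosphatidate phosphatase and coactivator) having the smallest p. The gene that rose was Pdk4. Of 12 feeding-induced genes, Pnpla3 rose (2.38) and Thrsp fell (-0.93), a share of 16.7% against 30.9% of all genes tested. Among 17 clock genes 7 fell and 1 rose (47.1% called), led by Per2 (-0.68), Nr1d2 (-0.42) and Tef (-0.57). Pericentral genes had 5 falls among 10 (50% called), led by Cyp1a2 (-0.91), Gulo (-0.43) and Oat (-0.59), with a median of -0.32. Periportal genes had 4 falls and 1 rise among 9 (55.6% called), among them Cyp2f2 (-0.57) and Ass1 (-0.61), with a median of -0.35.

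The 36 genes also varied among mice of one age. The SD of log2 CPM around the mean of each cull day had a median of 0.25 over the 36 genes in young mice and 0.28 in old mice, against 0.23 and 0.23 over all genes tested. In young mice the most variable were G6pc (0.88), Ppp1r3c (0.87), Pfkfb3 (0.78) and Hk1 (0.76), and the least variable were Pgam1, Pfkl and Tpi1 (0.09 each). In old mice Hk2 (1.12) and Pkm (1.1) varied most. Young mouse 1186 had the lowest young value for 14 of the 36 genes, among them G6pc, Gys2, Pygl and Pklr, and young mouse 1243 had the highest for 12. Old mice 1183 and 1189 each had the lowest old value for 12 genes.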
